A study of Homo sapiens with 4 samples.

Results

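The aldehyde dehydrogenases described here are 10 genes, ALDH1A1, ALDH1A3, ALDH1B1, ALDH1L2, ALDH2, ALDH3A1, ALDH3A2, ALDH7A1, ALDH9A1 and ALDH18A1, out of 20045 genes named on the array. They were chosen by symbol, and every probe that the platform's annotation gives to one of these symbols was read, 16 probes in all. Messenger RNA was measured on 4 Illumina bead arrays in the established human melanoma line A2058, grown in DMEM with serum. The 4 groups were parental cells in normoxia, parental cells in hypoxia, cancer stem-like cells in normoxia and cancer stem-like cells in hypoxia. The stem-like cells came from the parental line through selection in 100 uM carmustine, a nitrosourea that alkylates DNA, which was kept up for 6 months. Selection by the drug and months of separate culture cannot be told apart in this design. The sources used here do not give the oxygen level, the length of hypoxia or whether the stem-like cells are 1 clone. Each group holds 1 array, so no difference below has a replicate check and none was tested.

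Aldehyde dehydrogenases use NAD or NADP to oxidize aldehydes to carboxylic acids. Some isozymes, among them ALDH1A1 and ALDH1A3, make retinoic acid from retinaldehyde, and others clear acetaldehyde, fatty aldehydes and the aldehydes of lipid peroxidation, or take part in the metabolism of amino acids, choline and folate. In tumour biology the family is best known because a fluorescent test of aldehyde oxidation is used to sort stem-like cells, an activity usually credited to the ALDH1A isozymes.

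Levels are given as normalized log2 intensities or, where stated, as the deposited signals on their linear scale. Detection means a detection p-value under 0.01, and a call of higher or lower means a fold of 2 or more, which is a rule of size and not a test. The only gauge of error is the spread between log2 folds of probes of 1 gene, with an SD of 0.20 and 0.23 when hypoxia was set against normoxia in parental and stem-like cells, and of 0.30 and 0.28 when stem-like were set against parental cells in normoxia and hypoxia. Error between arrays and cultures is not in it. Between 16432 and 16945 probes and between 9991 and 10277 genes were detected on an array.

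Of 7 melanocyte and melanoma markers with a probe, 6 were detected in parental cells on both arrays, and 3, PMEL, MITF and SOX10, in stem-like cells on both. Their summed signal was 14750 and 16081 in parental normoxia and hypoxia against 1959 and 1754 in stem-like normoxia and hypoxia. Of markers of other cell types, 1 to 2 of 6 fibroblast genes, 1 of 5 keratinocyte genes, 1 to 2 of 5 leukocyte genes and 0 to 1 of 6 endothelial genes were detected on an array, and the summed signals of these 4 lists lay between 648 and 2080 on every array. Single markers among them also moved with the cell state. CD14, a monocyte receptor, was 4.95-fold higher in stem-like cells in normoxia and at least 7.26-fold in hypoxia, while PTPRC, the pan-leukocyte marker, was not detected on any array. LUM, which encodes the matrix proteoglycan lumican, was 3.14-fold and 4.80-fold lower. DCN, which encodes decorin, was at least 1.82-fold and at least 2.28-fold lower, and the Fc receptor gene FCGR3A 2.01-fold and 1.65-fold lower. The fibroblast gene COL1A1 went the other way, detected in stem-like normoxia alone and at least 1.12-fold higher there. The endothelial gene TEK was detected in stem-like cells alone, at least 1.04-fold and at least 1.31-fold higher. VWF was detected in parental hypoxia alone. The part of these markers in the results below was not tested. In RNA from whole cultures, fewer cells that express a gene and less RNA per cell cannot be told apart.

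In the stem-like cells the retinaldehyde dehydrogenases differed from the parental cells in opposite directions: ALDH1A1 was lower and ALDH1A3 higher, in normoxia and in hypoxia and by every probe. ALDH3A2, the fatty aldehyde dehydrogenase, was higher in both oxygen conditions. The mitochondrial isozyme ALDH1B1 was past 2-fold lower in hypoxia alone, a call that most alternative settings did not keep, and 1.92-fold lower in normoxia. ALDH7A1, ALDH9A1 and ALDH18A1 stayed within 2-fold, and ALDH1L2, ALDH2 and ALDH3A1 were not detected on any array. With hypoxia 0 of 7 detected members were past 2-fold in either cell state. Few genes were: 0.46% of all detected genes in parental and 0.68% in stem-like cells.

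**Figure D1:**
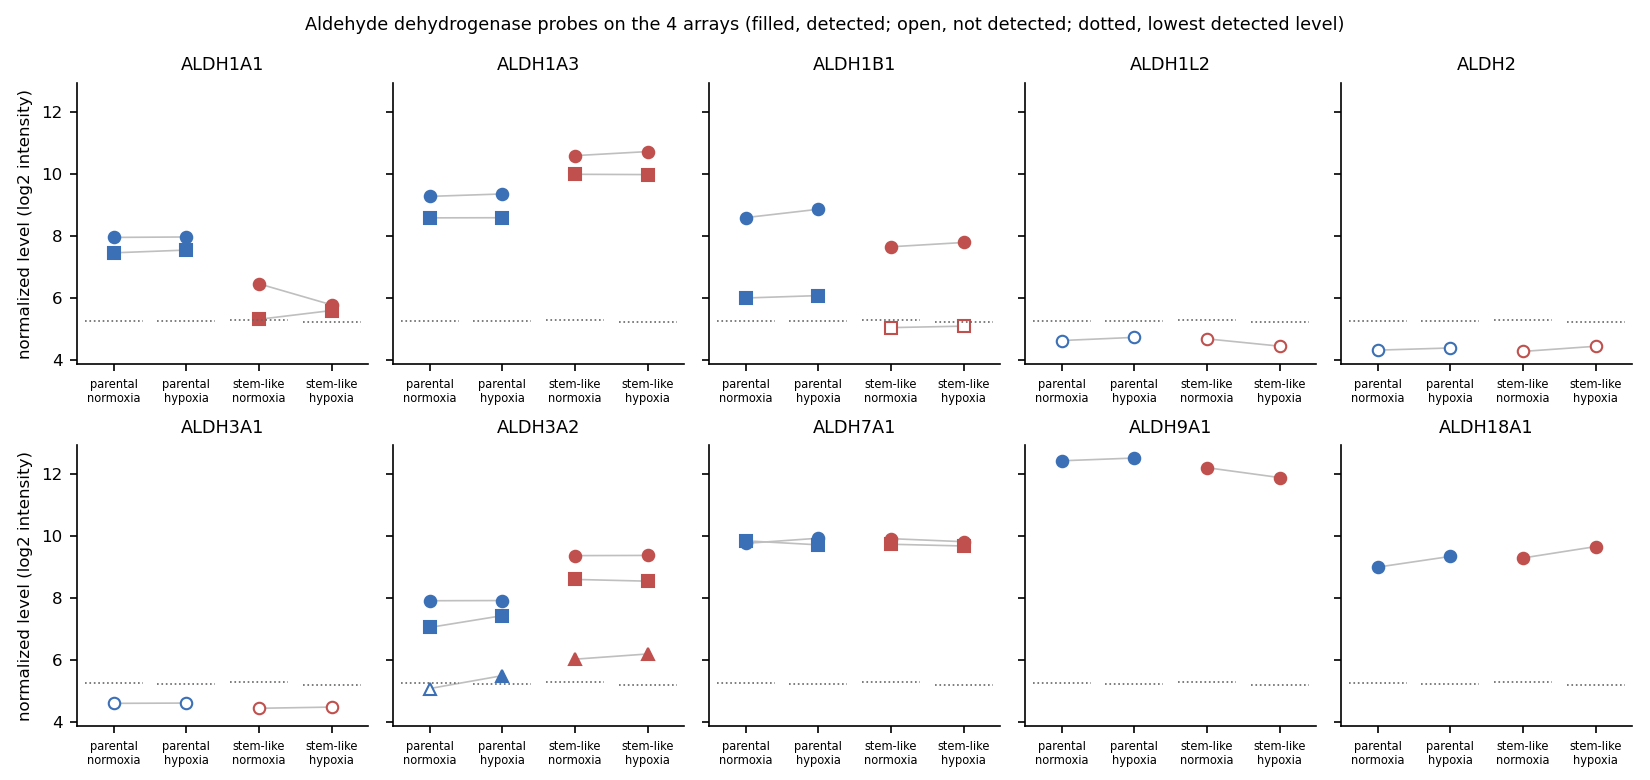
Normalized log2 intensity of each probe of the 10 genes on the 4 arrays, blue for parental and red for stem-like cells, with 1 marker shape per probe. ALDH1A1 and ALDH1B1 sit lower and ALDH1A3 and ALDH3A2 higher in the red points than in the blue, while ALDH1L2, ALDH2 and ALDH3A1 lie below the lowest detected level on all 4 arrays.

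ALDH1A1 and ALDH1A3 are both cytosolic enzymes that convert retinaldehyde to retinoic acid. Their promoters are shown because these are the members that differed in opposite directions. The sequences are RefSeq's for GRCh38.p14, the 250 bases before the annotated start, 5′ to 3′ on the gene's strand. ALDH1A1 lies at chr9:72953054-72953303 on the minus strand and ALDH1A3 at chr15:100879581-100879830 on the plus strand. Capitals mark every match to a motif that was searched.
ALDH1A1: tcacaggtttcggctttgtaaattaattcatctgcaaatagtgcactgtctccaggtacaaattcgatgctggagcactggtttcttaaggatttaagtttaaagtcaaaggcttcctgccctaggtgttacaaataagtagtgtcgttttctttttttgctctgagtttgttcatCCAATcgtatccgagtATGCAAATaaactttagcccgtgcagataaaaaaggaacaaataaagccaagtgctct
ALDH1A3: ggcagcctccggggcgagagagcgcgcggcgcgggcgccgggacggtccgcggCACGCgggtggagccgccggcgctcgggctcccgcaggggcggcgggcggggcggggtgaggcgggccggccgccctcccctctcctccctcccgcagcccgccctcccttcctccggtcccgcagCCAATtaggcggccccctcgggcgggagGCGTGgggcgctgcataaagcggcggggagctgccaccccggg
The ALDH1A1 window holds a CCAAT box 74 to 70 bases before the start and the octamer ATGCAAAT 58 to 51 bases before it. The ALDH1A3 window holds a CCAAT box 71 to 67 bases before the start and GCGTG, a core of the hypoxia response element, on each strand. The 2 windows differ in base composition, with 38.4% G and C in ALDH1A1 and 82.4% in ALDH1A3, against a median of 58% over 35116 promoters.

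The first ALDH1A1 probe gave deposited signals of 361 and 372 on the parental arrays, normoxia first, and 171 and 147 on the stem-like arrays in the same order. After normalization these were log2 levels of 7.95, 7.97, 6.46 and 5.78. Both stem-like arrays were below both parental arrays, and the lowest value was stem-like hypoxia. ALDH1A1 was 2.82-fold lower in stem-like than in parental normoxia and 4.54-fold lower in hypoxia. Its second probe had log2 levels of 7.46, 7.55, 5.32 and 5.60 and gave 4.40-fold and 3.85-fold lower. On that probe both stem-like levels were close to the lowest detected levels of 5.29 and 5.22. Only 263 of 10758 genes had a lower log2 fold than ALDH1A1 in normoxia. Without background correction, and in the authors' further table, the normoxia log2 fold was -0.91 and did not reach the call, while the hypoxia log2 fold stayed past it at -1.20 and -1.21.

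ALDH1A3 stood the other way round. Its brighter probe had deposited signals of 767 and 814 on the parental arrays, normoxia first, and 1462 and 1673 on the stem-like arrays in the same order. In log2 levels these were 9.27, 9.35, 10.58 and 10.71, with both stem-like arrays above both parental arrays. The gene was 2.48-fold higher in stem-like normoxia and 2.57-fold higher in stem-like hypoxia. The other probe had log2 levels of 8.58, 8.59, 9.98 and 9.97 and gave 2.64-fold and 2.62-fold. The 2 probes differed by 0.09 and 0.02 in their log2 folds, less than the between-probe SD. Under all 8 alternative settings the log2 fold lay between 1.19 and 1.40 in normoxia and between 1.25 and 1.39 in hypoxia. The alternatives that changed only the detection rule could not alter it, since the probe was detected on every array.

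**Figure D2:**
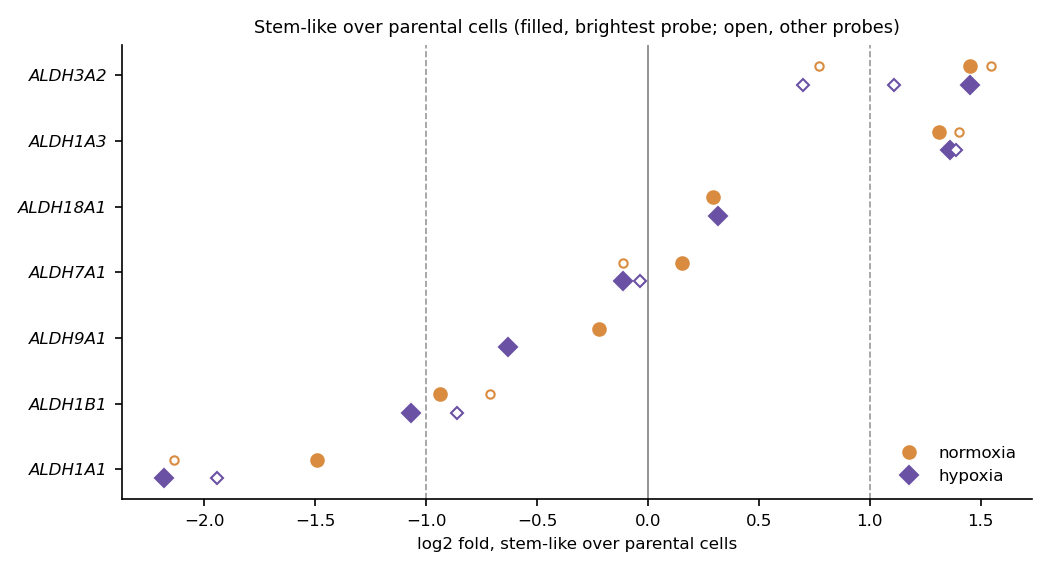
Log2 fold of stem-like over parental cells for each detected probe of the 7 detected genes, circles in normoxia and diamonds in hypoxia, with dashed lines at the call of 2-fold. ALDH1A1 lies left of the lower line and ALDH1A3 right of the upper line by every probe; the folds of the dimmer ALDH1B1 probe and the dimmest normoxia value of ALDH3A2 are bounds.

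ALDH2 and ALDH1B1 are mitochondrial enzymes that oxidize acetaldehyde, ALDH2 being the main acetaldehyde-clearing enzyme of the liver. The single ALDH2 probe was not detected on any array, with detection p-values between 0.574 and 0.975. The brighter ALDH1B1 probe had log2 levels of 8.59, 8.86, 7.65 and 7.79 in the same array order. Both stem-like arrays were again the lower pair. ALDH1B1 was 1.92-fold lower in stem-like normoxia, short of the call, and 2.10-fold lower in stem-like hypoxia. The call in hypoxia held under 3 of 8 alternatives, with log2 folds between -1.07 and -0.82 over all of them. Among those 3, a detection p-value under 0.05 and no detection filter could not change the value, since this probe was detected on every array. The remaining one, median scaling, gave -1.07. Its other probe was detected in parental cells, at log2 levels of 6.00 and 6.08, and not in stem-like cells, so that it gives a bound of at least 1.64-fold lower in normoxia and at least 1.82-fold lower in hypoxia.

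ALDH3A2 encodes the microsomal fatty aldehyde dehydrogenase, whose loss causes Sjogren-Larsson syndrome, and ALDH3A1 a cytosolic enzyme abundant in the cornea that removes lipid peroxidation aldehydes. The brightest ALDH3A2 probe had deposited signals of 355 and 364 on the parental arrays, normoxia first, and 667 and 719 on the stem-like arrays in the same order. Its log2 levels were 7.92, 7.92, 9.37 and 9.38, flat within each cell state and higher in the stem-like pair. ALDH3A2 was 2.74-fold higher in stem-like cells in normoxia and 2.74-fold higher in hypoxia. The 3 probes are annotated to 2 transcripts of the gene. The second probe gave 2.92-fold in normoxia and 2.16-fold in hypoxia, and the dimmest at least 1.71-fold in normoxia and 1.62-fold in hypoxia. The ALDH3A1 probe was not detected, with detection p-values between 0.26 and 0.61.

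The window before the first annotated start of ALDH3A2, at chr17:19647886-19648135 on the plus strand in RefSeq's GRCh38.p14, is shown because this member stood with ALDH1A3 on the higher side.
ALDH3A2: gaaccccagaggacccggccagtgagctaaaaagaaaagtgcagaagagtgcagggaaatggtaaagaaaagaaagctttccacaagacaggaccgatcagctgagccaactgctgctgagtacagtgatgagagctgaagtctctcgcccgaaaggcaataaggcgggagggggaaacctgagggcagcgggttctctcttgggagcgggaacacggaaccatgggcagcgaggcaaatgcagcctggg
It holds no match to the motifs searched. RefSeq gives a second start further along the gene, and the 250 bases before that one hold CACGTG, an E-box that also contains ACGTG on each strand, together with GCGTG and a CCAAT box.

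ALDH7A1, known as antiquitin, oxidizes an aldehyde of lysine breakdown, and ALDH9A1 oxidizes the aldehydes from which carnitine and gamma-aminobutyric acid are made. The brighter ALDH7A1 probe had log2 levels of 9.76, 9.93, 9.92 and 9.82 in the same array order, a range of 0.17. Its other probe had 9.85, 9.72, 9.74 and 9.68. The order of the arrays differed between the 2 probes, and all log2 folds lay between -0.13 and 0.17. RefSeq lists 4 pseudogenes of ALDH7A1, and whether these probes also read them was not examined. ALDH9A1, read by 1 probe, had log2 levels of 12.42, 12.51, 12.20 and 11.88. It was 1.17-fold lower in stem-like normoxia and 1.55-fold lower in stem-like hypoxia, both within 2-fold.

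ALDH18A1 and ALDH1L2 are members with synthetic or folate roles. ALDH18A1 encodes pyrroline-5-carboxylate synthase, which turns glutamate into the precursor of proline and ornithine, and ALDH1L2 the mitochondrial 10-formyltetrahydrofolate dehydrogenase. The single ALDH18A1 probe had deposited signals of 654 and 811 on the parental arrays, normoxia first, and 640 and 855 on the stem-like arrays in the same order. Its log2 levels were 9.00, 9.34, 9.29 and 9.66, so that the hypoxia array was above the normoxia array in each cell state. Stem-like cells were 1.23-fold higher in normoxia and 1.25-fold higher in hypoxia. The ALDH1L2 probe was not detected, with detection p-values between 0.15 and 0.57.

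As a list, the 7 detected members had 2 called higher and 1 called lower in normoxia when stem-like were set against parental cells, and 2 higher and 2 lower in hypoxia. Of all detected genes, 12.5% were past 2-fold in normoxia, 6.67% higher and 5.87% lower, and 13.2% in hypoxia, 7.24% higher and 5.97% lower. The median log2 fold of the 7 was 0.15 in normoxia and -0.11 in hypoxia, against -0.01 and -0.01 over all detected genes. The 2 comparisons use different arrays but the same parental and stem-like cells, so that they do not replicate the selection. The members called in normoxia, ALDH1A1, ALDH1A3 and ALDH3A2, were also past 2-fold in hypoxia in the same direction.

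The design also asks what hypoxia did in each cell state. Of 7 detected members 0 were past 2-fold in parental hypoxia, where 0.46% of all detected genes were, 0.383% higher and 0.0766% lower. None, 0 of 7, was past it in stem-like hypoxia, against 0.68% of all detected genes, 0.491% higher and 0.189% lower. Genes known to respond to low oxygen did differ on these arrays, with 6 of 7 detected genes of a short list of hypoxia-inducible factor targets higher in parental cells and 3 of 8 in stem-like cells. ENO2, a glycolytic enolase of that list, had log2 folds of 3.20 and 1.61, both past 2-fold. In normoxia 4 of 7 detected genes of that list were higher in stem-like than in parental cells, where 6.67% of all detected genes were. The median log2 fold of the list was 1.20. NDRG1 was 18.1-fold higher, VEGFA had a log2 fold of 0.14, and ADM was the gene below 0, at -0.79. In hypoxia 1 of 8 was higher, against 7.24% of all detected genes, with a median of 0.19.

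ALDH18A1 was the member with hypoxia log2 folds above the between-probe SD, and in the same direction, in both states, at 0.35 (parental) and 0.37 (stem-like). These are folds of 1.27 and 1.29, and they rest on 1 probe. ALDH1B1 had log2 folds of 0.27 and 0.14 by its brighter probe. ALDH1A3 stood at 0.08 and 0.13, and ALDH3A2 at 0.01 and 0.01 by its brightest probe, while its second probe gave 0.38 and -0.06. Over the 7 genes the median log2 fold was 0.09 with hypoxia in the parental line and 0.01 in the stem-like cells, against -0.00 and 0.00 over all detected genes.

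The 2 probes of ALDH1A1 disagreed on hypoxia in stem-like cells. Its first probe had a log2 fold of 0.01 in parental hypoxia and -0.68 in stem-like hypoxia, a difference between the states of -0.69. Without background correction the stem-like log2 fold of this probe was -0.29 and the difference -0.30. In the authors' further table that stem-like log2 fold was -0.28. The second probe gave 0.09 and 0.28, a difference of 0.19. The between-probe SD of such differences was 0.28 over 2134 genes, and both probes were dim in stem-like cells, with deposited signals between 130 and 171. ALDH9A1 had log2 folds of 0.09 and -0.32. Of 7 members 0 reached a difference of 1 between the cell states, where 0.666% of genes detected on all arrays did, 0.322% higher and 0.344% lower.

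**Figure D3:**
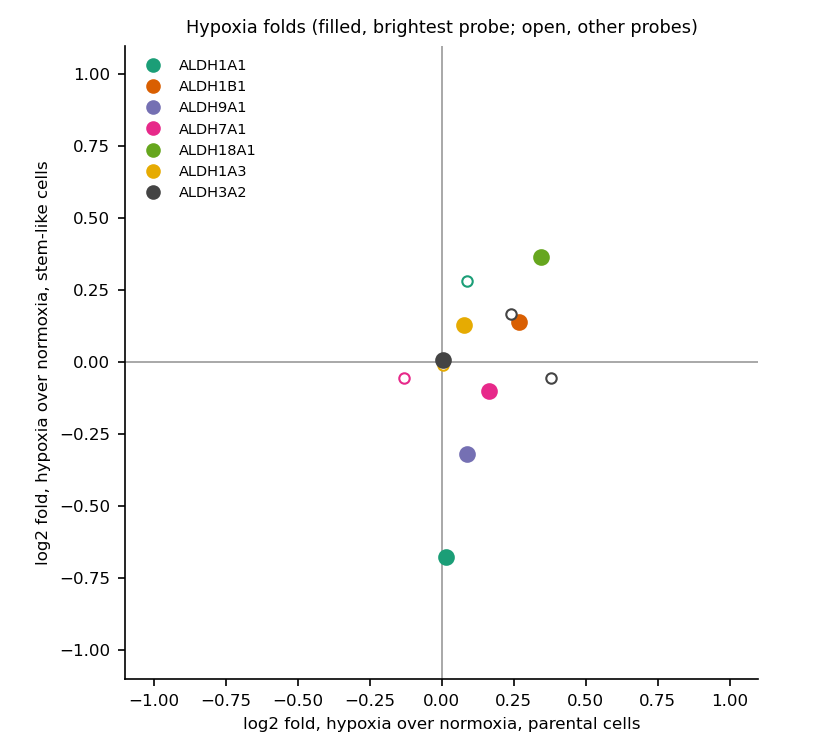
Log2 fold of hypoxia over normoxia in parental cells (horizontal) against stem-like cells (vertical) for each probe with a value in both, filled for the brightest probe of a gene. All points lie within 1 of 0 on both axes, ALDH18A1 is up in both at 0.35 and 0.37, and the 2 ALDH1A1 probes part vertically at -0.68 and 0.28.

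The ALDH18A1 promoter at chr10:95656712-95656961, minus strand, is shown because its gene had the highest hypoxia log2 fold of the members, by brightest probes, in both cell states. It is RefSeq's sequence for GRCh38.p14, written as above.
ALDH18A1: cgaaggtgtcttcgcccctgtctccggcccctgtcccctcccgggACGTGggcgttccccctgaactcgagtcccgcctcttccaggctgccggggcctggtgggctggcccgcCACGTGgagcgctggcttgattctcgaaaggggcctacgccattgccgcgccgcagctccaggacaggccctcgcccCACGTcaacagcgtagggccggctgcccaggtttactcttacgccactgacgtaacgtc
Its capitals mark ACGTG, the core of the hypoxia response element, at 3 places, the middle one inside the palindromic E-box CACGTG. Of 35116 promoter windows of this length, 18.5% hold ACGTG on either strand, 6.34% hold CACGTG, 32.2% hold GCGTG, 32.0% hold CCAAT and 1.63% hold ATGCAAAT. Either core, ACGTG or GCGTG, stands in 43.2%. Among the other members, ACGTG is in the windows of ALDH1B1 and of the second ALDH3A2 start. GCGTG is in that ALDH3A2 window and in ALDH1A3. The windows of ALDH1A1, ALDH7A1 and ALDH9A1 hold neither core. Both strands were searched. The E-box CATGTG, the AP-1 motif TGANTCA, the antioxidant response motif TGACNNNGC and the TATAAA box were searched too and matched none of the 8 windows of the 7 members with an entry. They stand in 9.42%, 6.57%, 10.9% and 10.7% of all windows in that order. A match is a description of these letters and not a binding site. Whether these motifs have a part in the hypoxia folds was not tested.

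**Figure D4:**
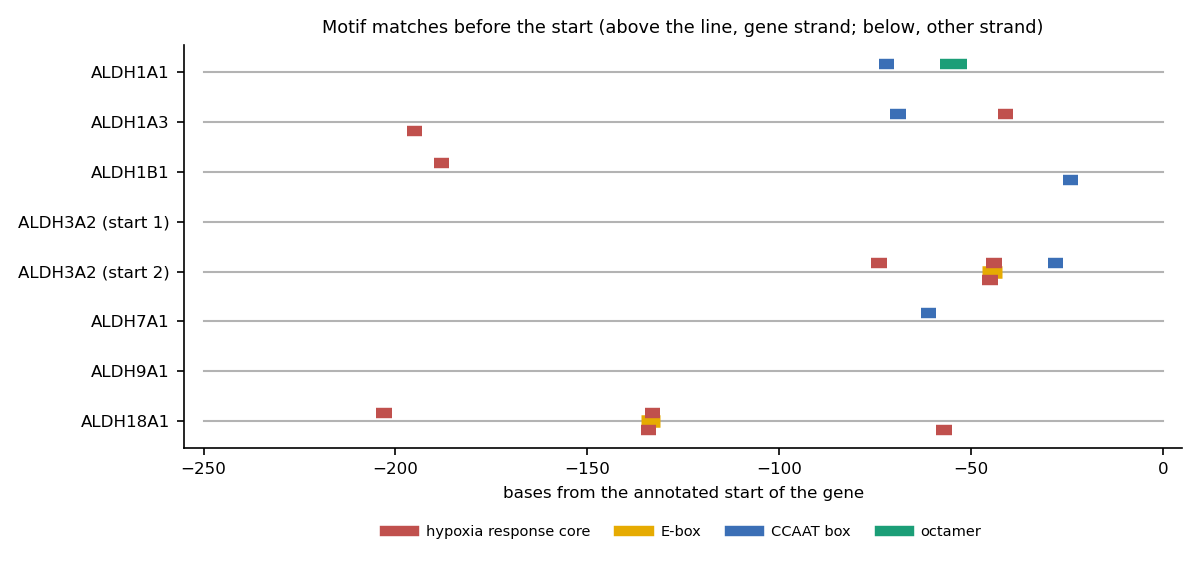
Motif matches in the 250 bases before each annotated start of the 7 genes with a promoter entry, at their distance from the start, above the line for the gene's strand and below it for the other strand. ALDH18A1 has ACGTG at 3 places, ALDH1A1 is the member with the octamer, and ALDH9A1 and the first start of ALDH3A2 have none.

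Of the other 9 human aldehyde dehydrogenases on the array, 7 were detected on at least 1 array. ALDH4A1, which completes proline breakdown, ALDH6A1, of valine breakdown, and ALDH16A1, which lacks a known activity in humans, were detected on all 4 arrays. By their brightest probes they stayed within 2-fold in each comparison, at log2 levels between 5.34 and 6.18. The other probes of ALDH4A1 and ALDH6A1 were not detected on any array. The lowest detected levels were 5.22 to 5.29, so that none of these genes could be called 2-fold lower. ALDH1L1, the cytosolic counterpart of ALDH1L2, was detected in stem-like cells alone, at log2 levels of 6.11 and 5.66, and was at least 1.79-fold higher there in normoxia and at least 1.33-fold in hypoxia. ALDH1A2, the third retinaldehyde dehydrogenase, was not detected on any array. Of this group 0 of 4 detected genes were past 2-fold in stem-like normoxia and 0 of 7 in stem-like hypoxia. The shares of all detected genes were 12.5% and 13.2%. The values of ALDH1L1 in normoxia, and of ALDH1L1, ALDH3B1, ALDH5A1 and ALDH8A1 in hypoxia, were bounds, so that their folds can be larger. With the other genes of the group so dim, these counts do not show that the group was stable.

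Genes around the retinaldehyde dehydrogenases were set beside them from a list of 28 retinoid genes, 26 of them with a probe. Of the 18 detected, 6 were called higher and 0 lower when stem-like were set against parental cells in normoxia, and 5 higher and 1 lower in hypoxia, with median log2 folds of 0.42 and 0.22. Over all detected genes 6.67% were higher and 5.87% lower in normoxia, and 7.24% and 5.97% in hypoxia. CYP26B1, which breaks down retinoic acid, lay on the lower side just short of the call, with log2 folds of -0.999 in normoxia and, as a bound, -0.97 in hypoxia. CRABP2, which carries retinoic acid to its nuclear receptors, had log2 levels of 5.62, 5.52, 8.36 and 9.20 in the usual array order, log2 folds of 2.75 and 3.68. TGM2, a transglutaminase that retinoic acid induces in many cells, had log2 folds of 2.93 and 3.52. RXRA, a partner of the retinoic acid receptors, stood at 2.21 and 2.07, and DHRS3, which reduces retinaldehyde to retinol, at 1.64 and 1.73. The gene that was lower in hypoxia was RXRG, another retinoid X receptor, with log2 levels of 7.88, 7.93, 7.52 and 6.46 and a log2 fold of -1.46. It was also the list's gene past 2-fold with hypoxia in stem-like cells, at -1.06. RARA, the retinoic acid receptor detected here, had log2 folds of 0.21 and 0.19, and RARB and RARG were not detected.

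Of the 5 detected genes of proline and ornithine metabolism around ALDH18A1, 1 was called higher and 2 lower in stem-like normoxia, and 1 higher and 3 lower in hypoxia. Over all detected genes 6.67% were higher and 5.87% lower in normoxia, and 7.24% and 5.97% in hypoxia. In each comparison 2 of the 5 had a log2 fold above 0 and 3 below. PYCR1, which makes proline from the ALDH18A1 product, had log2 levels of 8.51, 8.31, 6.46 and 6.54, log2 folds of -2.05 in normoxia and -1.78 in hypoxia. The arginase gene ARG2 had -1.09 and -1.14 and OAT, which links ornithine to the same intermediate, -0.76 and -1.15. ODC1, which commits ornithine to polyamines, was higher at 1.46 and 1.05.

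In serine and folate metabolism, the setting of ALDH1L2, 2 of 12 detected genes were called lower and 0 higher in stem-like normoxia, and 2 of 13 lower and 0 higher in hypoxia. The shares over all detected genes were 5.87% lower and 6.67% higher in normoxia, and 5.97% and 7.24% in hypoxia. The genes called lower were PSPH and PSAT1 of serine synthesis, with log2 folds of -1.29 and -1.22 for PSPH and -1.02 and -1.18 for PSAT1. SHMT2, which feeds serine into mitochondrial folate, had a log2 fold with hypoxia of 0.13 in the parental line and 0.72 in the stem-like cells.

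Of the genes that make or handle fatty aldehydes, near ALDH3A2, 1 of 5 detected was higher and 1 lower in stem-like normoxia, and the same counts held in hypoxia. All detected genes had 6.67% higher and 5.87% lower in normoxia, and 7.24% and 5.97% in hypoxia. AGMO, which cleaves ether lipids and releases a fatty aldehyde, was detected in stem-like cells alone, with log2 folds of at least 1.30 and 1.42. FAR2 and FAR1, which reduce fatty acyl-CoA to fatty alcohol, had log2 folds of -1.12 and -0.93 in normoxia. ALDH3A1 is a known target of NRF2 in mice and of the aryl hydrocarbon receptor in several species. Of 9 detected genes of the NRF2 list, 0 were past 2-fold between the cell states in normoxia or in hypoxia. They include NFE2L2, which encodes NRF2, and its inhibitor KEAP1. Of the aryl hydrocarbon receptor list 0 of 2 detected genes were past it, the receptor gene AHR and the target TIPARP. CYP1A1, CYP1A2, CYP1B1 and AHRR were not detected on any array. Of all detected genes 12.5% were past 2-fold in normoxia and 13.2% in hypoxia. The activity of these regulators was not tested.

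**Figure D5:**
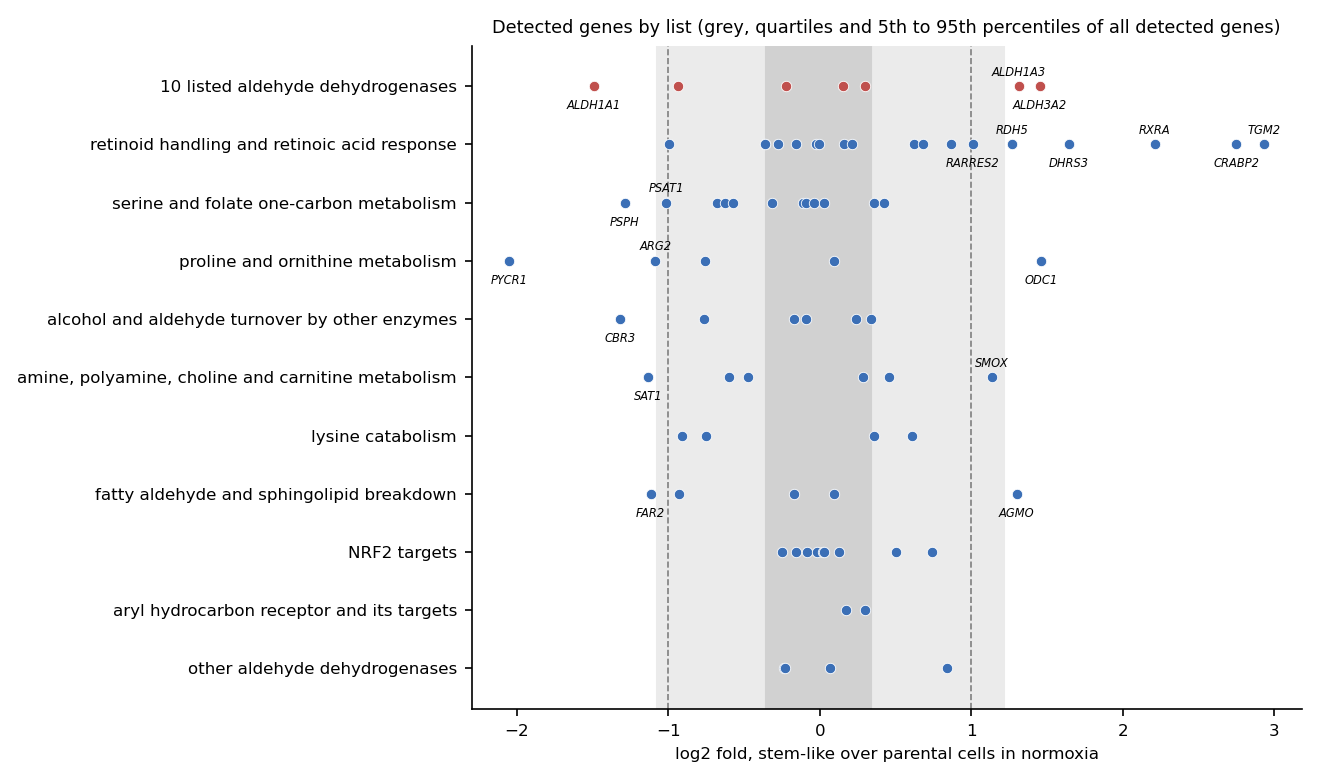
Log2 fold of stem-like over parental cells in normoxia for every detected gene of the 10 listed aldehyde dehydrogenases and of 10 related lists, with genes past 2-fold named and grey bands for all detected genes, the dark one between the quartiles at -0.36 and 0.34 and the light one between the outer percentiles at -1.08 and 1.22. ALDH1A3, ALDH3A2, CRABP2, TGM2 and RXRA lie to the right of the upper dashed line and ALDH1A1 and PYCR1 to the left of the lower one.

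For each member with a range of at least 1 on the log2 scale, the 3 genes of 9005 with the nearest profile over the 4 arrays were found by Euclidean distance after centring. For ALDH1A1 they were ST3GAL6 at a distance of 0.03, PIR at 0.06 and IGSF11 at 0.12. These stand near the profile of its first probe, with a hypoxia log2 fold of -0.68 in stem-like cells. Its second probe gave 0.28 there and was not compared. For ALDH1A3 they were SH3D19 at 0.04, TPM1 at 0.06 and PDGFRL at 0.07, and for ALDH3A2 NME3 at 0.07, HSPA5 at 0.08 and APOBEC3F at 0.08. ALDH1B1 stood nearest to ELAVL1 and RYBP at 0.06 and HIP1 at 0.07. A profile of 4 values from 4 arrays is short, and the distances describe these arrays only.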

How the data were processed

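Biotin-labelled RNA of 4 A2058 cultures, 1 per group, was read on Illumina bead arrays. The deposited non-normalized table holds intensity on a linear scale, and the authors' further table intensity with the same quantiles on all arrays; both are described from their values and headers. A detection p-value accompanies each signal, per the file headers. The sources used here do not name the scanner software or how the authors normalized.

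The non-normalized table has 47323 lines of values for 47315 identifiers, and 98.0% of identifiers stand 1 to 8 lines from their values. Lines were matched to probes along 1 ordered path against the further table, which took Spearman's rho on the first array from 0.015 to 1.00. That repair was decided after the values were seen. As a check without that table, levels of 2 probes of a gene correlated at 0.025 before and 0.449 after it over 6691 genes.

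Probes were named by the platform annotation, which can be old: 30112 had 1 symbol, 8 several and 17195 none. Signals were background-corrected and quantile-normalized with limma 3.58.1 (neqc, offset 16) in R 4.3.3 over all probes, and tested on simulated data. The brightest probe stands for a gene, and the other probes of the 10 members are given beside it. For genes of the other lists the further probes are mostly not given. Values not detected were set to their array's lowest detected level where they lay below it, which makes the fold a bound. Folds shrink for dim genes. The number of arrays limits the precision. Named are all 10 members, up to 4 genes per list and comparison with the largest log2 folds, and the 3 nearest profiles; PTPRC, CYP26B1, NFE2L2, KEAP1, RARA, RARB, RARG and genes said to be undetected were added after their values were seen. Members, 16 lists and motifs were chosen with earlier results of these data known.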

Additional observations from a re-analysis of the deposited data

Results flagged for a closer look

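Hypoxia went with opposite signs in the 2 cell states for 3 members, by the brightest probe of each and with 1 array per group, and the difference was not tested. For ALDH1A1 the parental log2 fold was 0.01 and the stem-like one -0.68, a difference of -0.69. Without background correction that difference was -0.30. ALDH9A1 had 0.09 and -0.32, a difference of -0.41. ALDH7A1 had 0.17 and -0.10, a difference of -0.26, less than the between-probe SD of 0.28. The parental log2 folds of all 3 were below the between-probe SD of 0.20 for that comparison. The second probes of ALDH1A1 and ALDH7A1 did not show opposite signs. That of ALDH1A1 gave 0.09 in parental and 0.28 in stem-like cells, a difference of 0.19. That of ALDH7A1 gave -0.13 and -0.06, a difference of 0.07.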

How the results depend on the processing

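No paired analysis was possible because each group holds 1 array, so that groups share no more than 1 replicate number. A fit of cell state and oxygen without their interaction, which takes the oxygen conditions as pairs and leaves 1 residual degree of freedom, was not run. With 7 alternatives planned and 1 added after seeing the data, the second brightest probe of a gene, total counts of members past 2-fold stayed within 1.5 times and list medians within the between-probe SD. Of single member values, 256 stayed within that SD, 22 moved by more, and 0 called values changed sign. Part of the 256 could not move. A detection p-value under 0.05 and no detection filter leave the values of the 7 detected members as they are, since their brightest probes were detected on every array. The settings on choice of probe leave ALDH9A1 and ALDH18A1, with 1 probe each, as they are. Calls were lost for ALDH1A1 in normoxia without background correction and with the authors' further table (log2 fold -0.91 in each), and for ALDH1B1 in hypoxia under 5 of 8 alternatives. The cause was not tested. Over all genes, stem-like over parental normoxia had 718 higher and 632 lower, against 344 and 252 without background correction and 346 and 257 in the authors' further table. In hypoxia these were 796 and 657, 372 and 283, and 373 and 286. Parental hypoxia had 40 and 8 against 19 and 1, 20 and 1, and 27 and 1 with an offset of 50, and stem-like hypoxia 52 and 20 against 12 and 2, 11 and 2, and 24 and 6. Differences between the states numbered 29 higher and 31 lower, against 24 and 39 with median scaling, 2 and 4 without background correction, 3 and 5 in the authors' further table, 6 and 12 with an offset of 50 and 122 and 92 with no detection filter. Signal near background limits ALDH1A1 in stem-like cells and the dim probes of ALDH1B1 and ALDH3A2.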

Other observations

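In stem-like normoxia SMOX, which oxidizes spermine, had a log2 fold of 1.14 and SAT1, which acetylates polyamines, -1.13, and in hypoxia 1.17 and -1.02. Of 6 detected genes of amine, polyamine, choline and carnitine metabolism 1 was higher and 1 lower in normoxia, and 1 higher and 2 lower in hypoxia. Over all detected genes 6.67% were higher and 5.87% lower in normoxia, and 7.24% and 5.97% in hypoxia. The other gene of this list that was lower in hypoxia was TMLHE, which starts carnitine synthesis ahead of ALDH9A1, with a log2 fold of -1.09.

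Among other enzymes of alcohol and aldehyde turnover, 1 of 6 detected genes, the carbonyl reductase CBR3, was past 2-fold, with log2 folds of -1.32 in stem-like normoxia and -1.61 in hypoxia. For this list and the next, the shares of all detected genes past 2-fold between the cell states were 12.5% in normoxia and 13.2% in hypoxia. The alcohol dehydrogenases ADH1A, ADH1B, ADH1C, ADH4, ADH6 and ADH7 were not detected on any array. Of 4 detected genes of lysine catabolism, around ALDH7A1, 0 were past 2-fold; AASS, which acts ahead of it, had log2 folds of -0.91 and -0.70.

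Of the 9 detected genes of the NRF2 list, 9 stood below 0 on the log2 scale when hypoxic were set against normoxic stem-like cells. Their median was -0.38, against a median of 0.00 over all detected genes, and 0 were past 2-fold, where 0.68% of all detected genes were. In parental cells 3 stood above 0 and 6 below, with a median of -0.08. The list also holds NFE2L2, which encodes NRF2 itself, at -0.11 in stem-like cells, and its inhibitor KEAP1 at -0.04. HMOX1, which degrades haem, stood at -0.85.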
